A study of Mus musculus with 29 samples.

Results

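The aortic arch of AL-fed Ercc1Δ/- mice at 22 weeks was compared with that of WT littermates of the same age and diet. Of the 29 libraries of the series, 8 made up this comparison, 4 from Ercc1Δ/- mice (samples 004 and 005, female; 013 and 026, male) and 4 from WT mice (018, female; 012, 020 and 025, male). They were taken by genotype, age and diet from the sample labels, and a further WT sample, 003, was left out because the authors had left it out. All mice were F1 hybrids of C57BL6J and FVB, were housed singly with AIN93G pellets at will, and gave 1 library each. The Ercc1Δ/- mice carried 1 allele without function and 1 allele for a shortened protein, and WT mice were Ercc1 +/+. The alleles are carried by every cell of the animal, not by the wall alone. Libraries from 5 and 5 mice of 6 weeks (AL), and from 5 and 5 mice of 22 weeks on dietary restriction (DR), served to follow the same genes in other animals.

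ERCC1 forms a nuclease with XPF that cuts DNA beside bulky lesions in nucleotide excision repair and takes part in the removal of crosslinks between strands. Mice with little ERCC1 accumulate unrepaired lesions that stall transcription, and they age early in many organs, the vessel wall included. The wall of the arch is built of smooth muscle cells that pull on elastic lamellae through adhesion complexes, with endothelium inside, and fibroblasts, macrophages and fat outside. The question put to the data was which genes and pathways, beyond those already described from these data, set the aged mutant arch apart from its control.

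Reads assigned to genes came to 1294980 to 3855444 per library in Ercc1Δ/- and 3903589 to 9616382 in WT, so that the depths did not overlap (exact permutation test, two-sided, p = 0.0286, the smallest that 4 against 4 allows). A normalized count below is the count scaled to a common library of 3683502 reads, and fold changes are Ercc1Δ/- over WT from a fit with sex as a term. A gene was called when its adjusted p was at most 0.05 and its change at least 1.2-fold. Ercc1 itself (chromosome 7, 19075881 to 19090450, GRCm39) stood at 54.1, 54.6, 69.8 and 57.2 normalized counts in the mutants and at 127, 110, 108 and 114 in WT. The groups did not overlap, with a log2 fold change of -0.97 ± 0.20 (SE; adjusted p = 0.00271), and Xist and the Y-linked genes tested followed the labelled sex in each of the 8 mice. Mitochondrial transcripts took 5.37% to 5.96% of the assigned reads in the mutants and 2.47% to 3.72% in WT, and the part of depth in these shares was not tested. The part of mitochondrial transcripts, and that of depth, in the results was not tested beyond thinning all libraries to 921167 reads, after which 814 genes were called, 741 of them among the calls reported here in the same direction.

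Of 12353 genes tested, 1487 (12.0%) were called, 726 higher (5.88%) and 761 lower (6.16%) in Ercc1Δ/-. Counts of called members in the lists below are to be read against these shares. Larger differences lay mostly upward, with 343 genes called at least 2-fold higher and 116 at least 2-fold lower. In the median, a gene called higher had a log2 fold change of 0.96, and a gene called lower of -0.60. The samples of the 2 groups did not overlap in 2302 genes (18.6%), of which 1264 were called. Fitted in the males alone, 326 of the 1487 genes were called again in the same direction. The sign held within the males for 1486 of the 1487 and within the females for 1485. These genes were chosen from the same mice, which largely fixed that match of sign, and only 1 WT sample was female. Without that sample, WT 018, 933 genes were called. The calls of genes named in the comparisons below were kept when any 1 of the 8 samples was left out, unless a loss is stated. Of the 184 called genes named by the rule given at the end, 123 stayed called after thinning and 71 in males only. Those losses are stated below for some genes only.

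Among genes higher in Ercc1Δ/- and not already described from these data, Psrc1 had the smallest p. Psrc1 (chromosome 3, 108288765 to 108295547), which codes for a microtubule-binding protein of the spindle and is a known p53 target, measured 62.2, 56.7, 75.3 and 67.2 normalized counts in Ercc1Δ/- and 10.7, 12.0, 13.7 and 17.8 in WT. Every mutant was above every WT mouse, which the choice of leading genes required, and the log2 fold change was 2.31 ± 0.22 (adjusted p = 4.38e-07). Gda codes for guanine deaminase, which turns guanine into xanthine, and measured 372, 431, 340 and 299 against 98.1 to 120. Its log2 fold change was 1.76 ± 0.17 (adjusted p = 1.03e-06), and the groups were separate by the same choice. Fetub, for the secreted protease inhibitor fetuin-B, had 47.8, 53.6, 126 and 52.3 normalized counts in the mutants and 8.29 to 13.3 in WT, with sample 013 far above the other 3 mutants.

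Several of the other leading genes are known from macrophages or from lysosomes. Ctss codes for cathepsin S, a protease that cuts elastin, and stood at 239, 257, 123 and 167 in Ercc1Δ/- against 27.2, 46.5, 53.0 and 48.2 in WT (log2 fold change 2.14 ± 0.25). Adam8, a membrane metalloprotease of leukocytes, ranged from 25.1 to 90.4 against 7.22 to 11.6, and the 2 neighbouring genes Tmem176a and Tmem176b, for ion channels of dendritic cells and macrophages, were 1.97 ± 0.21 and 1.49 ± 0.18 higher on the log2 scale. Ucp2, for a carrier of the inner mitochondrial membrane, was 1.36 ± 0.16 higher, Ftl1, for the light chain of ferritin, which stores iron and has near-identical copies that can share its reads, 0.95 ± 0.12, and the antiviral membrane protein gene Ifitm3 1.24 ± 0.15. Outside the immune system, Sncg (gamma-synuclein) rose from 247 ± 36.8 (SD, n = 4) to 735 ± 202 normalized counts. Celf4, which codes for an RNA-binding regulator of splicing best known from neurons, measured 45.1 to 77.1 against 7.22 to 11.6.

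**Figure D1:**
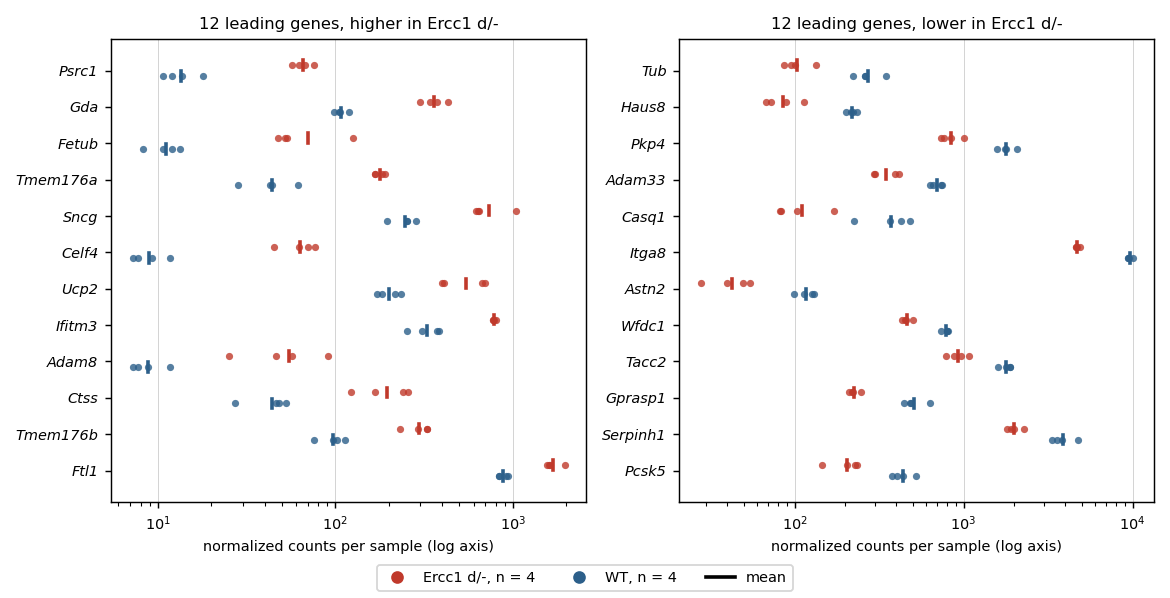
Normalized counts per sample (log axis) of the 12 leading genes in each direction; red points are the 4 Ercc1Δ/- and blue points the 4 WT libraries, and short bars are group means. In each gene the 2 groups are separate, which the choice of these genes required, and Fetub shows 1 mutant (126) apart from the other 3.

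Among genes lower in Ercc1Δ/-, Tub (chromosome 7, 108549545 to 108633671), which codes for the tubby protein of signalling and cilia, had the smallest p, with 94.7, 86.2, 100.5 and 134 normalized counts against 263, 345, 221 and 260 (log2 fold change -1.49 ± 0.17, adjusted p = 5.02e-06). Haus8, a subunit of the augmin complex that seeds microtubule branches, fell from 219 ± 13.7 to 85.9 ± 21.2. Pkp4 (plakophilin 4, a junction protein) fell from 1793 ± 206 to 839 ± 120 and Tacc2, of the centrosome, from 1789 ± 129 to 925 ± 124. Itga8 (chromosome 2, 12110900 to 12307214) codes for the alpha-8 integrin chain with which smooth muscle cells hold fibronectin and nephronectin. It measured 4617, 4690, 4624 and 4887 in the mutants and 9428, 10027, 9424 and 9573 in WT, with little spread in either group (log2 fold change -1.05 ± 0.13).

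Serpinh1 (HSP47), the chaperone that folds collagen in the endoplasmic reticulum, stood at 1976, 1818, 2277 and 1904 against 4768, 3547, 3350 and 3844 (-0.93 ± 0.12). Pcsk5, a convertase that matures secreted precursors, Adam33, a membrane protease gene of smooth muscle and mesenchyme, and Wfdc1, for a secreted inhibitor, had log2 fold changes of -1.11 ± 0.14, -0.99 ± 0.12 and -0.78 ± 0.10. Casq1 codes for a calcium store protein of the sarcoplasmic reticulum and fell from 375 ± 111 to 110 ± 42.3 normalized counts. Astn2 and Gprasp1, which act in the traffic of membrane receptors, had log2 fold changes of -1.50 ± 0.18 and -1.20 ± 0.15.

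By size of change, Spp1 (osteopontin, a secreted matrix protein of macrophages and injured vessels) led upward with 253, 143, 201 and 234 normalized counts in Ercc1Δ/- and 3.88, 6.91, 6.84 and 2.28 in WT, a log2 fold change of 5.44 ± 0.49 (adjusted p = 4.03e-06). Prg4 (lubricin, a lubricating proteoglycan of joints and serous surfaces) measured 827, 742, 1258 and 851 against 156, 77.4, 152 and 64.2, and the summed mesothelium markers stood at 505 to 804 against 33.0 to 536, with WT 020 inside the mutant range. Elovl3, a fatty acid elongase of brown fat, spread from 33.5 to 448 in the mutants and from 4.15 to 23.1 in WT, and its call was lost without WT 018 (log2 fold change 3.61 without that sample and 4.18 with all). Its highest and lowest mutant values were in the mutants with the highest and lowest summed fat markers (7218 in sample 004 and 943 in 013, against 1192 to 1710 in WT), and the part of fat in its result was not tested.

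Downward, the inducible heat shock genes Hspa1b and Hspa1a had the largest changes. Hspa1b stood at 236, 269, 285 and 197 against 589, 2078, 2679 and 2216, with a log2 fold change of -2.87 ± 0.58, and the WT sample 012 lay well below the other 3. The same WT sample had the lowest sum of immediate early genes, 3094 against 3823 to 8207 in the other WT samples, while the mutants had 3307 to 4181; how far handling enters the heat shock result was not tested. The 2 genes are near-identical copies whose reads can be split between them. Stum, for a membrane protein named after a fly gene of mechanical sensing, fell from 460 ± 89.0 to 91.0 ± 38.5 (-2.39 ± 0.27), and the unnamed gene model 5430431A17Rik from 83.5 ± 28.7 to 13.4 ± 7.41.

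Genes by which a muscle cell grips its surroundings held the largest number of members called lower of the lists examined. A focal adhesion is the site where integrins bind matrix outside and actin inside, and the costamere is its counterpart in muscle. Of 38 tested members, 25 were called lower and 0 higher, where 6.16% of all genes were called lower, and the median log2 fold change was -0.54 against 0.03 over all genes tested. At an unadjusted p under 0.05 the counts by edgeR were 30 lower and 0 higher, and DESeq2 called 24 lower and 0 higher. Vcl (vinculin), which ties the integrin layer to actin, measured 981, 1041, 918 and 1162 in Ercc1Δ/- and 1790, 1909, 1780 and 1713 in WT. No mutant reached the WT range, and the log2 fold change was -0.82 ± 0.11 (adjusted p = 2.48e-05). Fblim1 (migfilin) fell by 0.83 on the log2 scale, Actn1 (alpha-actinin 1, an actin crosslinker) by 0.81 and Pdlim7, for an adaptor of the actin network, by 0.71. Without WT 018, 16 members were called lower, and 19 to 24 when any other sample was left out.

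The dystrophin complex anchors the muscle membrane to the basement membrane along its length. Of its 15 tested members 6 were called lower and 0 higher, and the median of the log2 fold changes was -0.35. Dmd itself measured 289, 286, 318 and 276 against 429, 409, 521 and 479 (-0.66 ± 0.15, adjusted p = 0.00474). Dtna (dystrobrevin) had a log2 fold change of -0.81 ± 0.15 and Sntb1 (syntrophin) of -1.03 ± 0.23. Caveolae, membrane pits that take up stretch, had 4 of 9 members called lower, with 1 called without Ercc1Δ/- 004 or 005. Cav1, the main coat protein, fell from 2355 ± 265 to 1789 ± 202 normalized counts (-0.42 ± 0.11), and without WT 018 no member of the list was called. Cavin1, Pacsin3 and Ehd2 lost their call without 5, 4 and 8 of the 8 samples in turn, and Cav2 (-0.12 ± 0.14) and Cavin2 (0.15 ± 0.13) were not called.

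Markers of the smooth muscle cell moved with these genes. Of 6 markers 5 were called lower, with a summed level of 61407 to 95200 in Ercc1Δ/- against 116679 to 140032 in WT. Myh11, the smooth muscle myosin, measured 19428, 22928, 33178 and 34754 against 55836, 53166, 59986 and 47528, and Cnn1 (calponin) and Smtn (smoothelin) had log2 fold changes of -0.77 ± 0.12 and -0.93 ± 0.15. The male mutants had more than the female mutants, and all 4 were under each WT mouse. In a whole piece of wall, fewer smooth muscle cells and less of each RNA per cell cannot be told apart, and their part was not tested in the adhesion results or in those on YAP targets, ion channels and splicing regulators, which these markers also moved with.

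Some of these genes hold a CArG box, the element of 10 bases by which serum response factor and myocardin are known to switch on muscle genes. It was searched on both strands in windows from 250 bases before to 50 bases after each start of transcription (RefSeq, GRCm38.p6), as CC, then 6 letters that are each A or T, then GG. It was found in 1.63% of all 32851 windows. Among called members of the adhesion list, 3 of the 20 with a window held it, and among those of the dystrophin complex 1 of 3, where windows were at hand for only 3 of 6 and the share is therefore void as a check. The 4 stretches are printed 5′ to 3′ on the strand of the gene to show the matched letters in their setting. The element stands in capitals with some bases on each side, fewer where the window or the start of transcription came first, so that only the Ldb3 stretch reaches the start. Ldb3 and Fermt2 lie outside the rule for named genes and were added for their promoters.
Vcl (chr14:20929148-20929220, plus strand): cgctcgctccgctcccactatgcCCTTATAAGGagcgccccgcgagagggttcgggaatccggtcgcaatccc
Ldb3 (chr14:34588682-34588756, minus strand): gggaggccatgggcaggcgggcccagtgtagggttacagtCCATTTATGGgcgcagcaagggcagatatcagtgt
Fermt2 (chr14:45530220-45530309, minus strand): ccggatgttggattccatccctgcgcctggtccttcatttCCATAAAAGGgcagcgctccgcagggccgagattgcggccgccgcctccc
Dmd (chrX:82948732-82948821, plus strand): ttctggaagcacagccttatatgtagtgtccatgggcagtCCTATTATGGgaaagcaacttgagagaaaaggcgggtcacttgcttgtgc

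The element began 227, 35, 204 and 98 bases before the start in the windows of Vcl, Ldb3, Fermt2 and Dmd. Ldb3, which builds the Z-line of muscle, fell from 597 ± 79.3 to 343 ± 39.8 normalized counts, and Fermt2 (kindlin 2), which switches integrins on, from 1188 ± 160 to 843 ± 73.3. Over all genes called lower, 29 of the 588 with a window held a CArG box, and 6 of the 524 called higher. Windows were at hand for 77.3% and 72.2% of these genes, under 80%, so that as a check of the whole sets these shares are void and they describe the matched genes only.

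**Figure D2:**
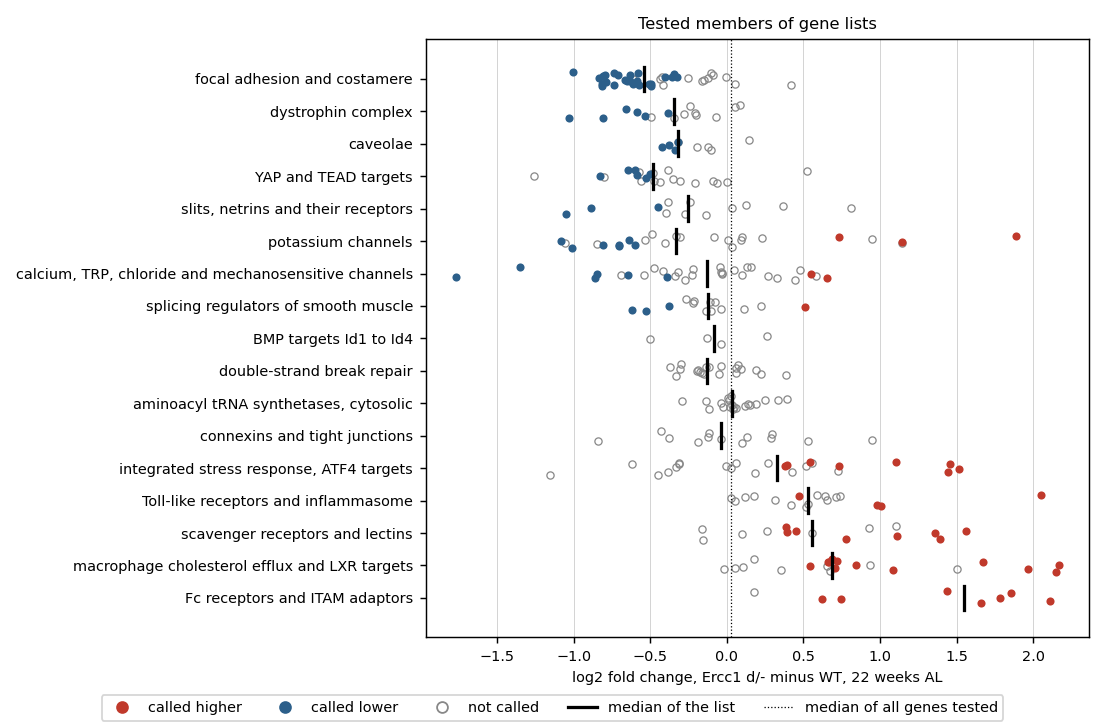
Log2 fold change (Ercc1Δ/- over WT) of each tested member of 17 gene lists; filled points were called, open points were not, thick bars are list medians and the dotted line is the median of all genes tested (0.03). The adhesion list lies to the left (median -0.54), the Fc receptor list to the right (median 1.55), and the Id genes, double-strand break repair, tRNA synthetases and connexins hold no called member.

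Genes that answer to YAP and TEAD, the transcription partners that report mechanical tension in a cell, lay mostly below WT. Of 21 tested targets 6 were called lower and 0 higher (4 without WT 018), with a median of -0.48, and 1 of the 21 was positive. F3 (tissue factor, which starts coagulation) measured 241, 221, 204 and 284 against 445, 422, 424 and 406 (-0.83 ± 0.12, adjusted p = 8.56e-05), and Crim1 and Arhgef17 fell by 0.65 and 0.53 on the log2 scale. The classic targets Ccn1 (-1.26 ± 0.49, adjusted p = 0.114) and Ccn2 (-0.56 ± 0.23, adjusted p = 0.133) were not called, although no mutant reached the WT range in either, and Ankrd1 overlapped between the groups.

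Several genes for ion channels that set the tone of the vessel were called lower. Of 25 potassium channel genes 7 were called lower and 3 higher, with a median of -0.33. Kcnmb1, the smooth muscle subunit that makes the BK channel more sensitive to calcium, measured 580, 614, 751 and 709 against 933, 1045, 994 and 1037 (-0.60 ± 0.12, adjusted p = 0.00244). Kcnab1, for a subunit of voltage-gated channels, fell by 1.01 on the log2 scale. When a sample was left out, 4 to 7 of these genes were called lower and 0 to 3 higher, with 4 lower without Ercc1Δ/- 005 or 026 and 0 higher without Ercc1Δ/- 005 or WT 018.

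Of 30 genes for calcium, TRP, chloride and stretch channels, 6 were called lower and 2 higher (26.7%, against 12.0% of all genes). Cacna1c, the pore of the L-type channel through which calcium enters for contraction, stood at 162, 178, 279 and 284 against 342, 429, 462 and 374 (-0.86 ± 0.16, adjusted p = 0.000707). Both female mutants had less than both male mutants, and all were under the WT range. Cacna1g, the T-type pore, fell from 57.5 ± 16.5 to 18.7 ± 6.78, the auxiliary subunit gene Cacna2d3 from 47.3 ± 5.28 to 21.4 ± 11.7 (call lost after thinning), and Ano1, the calcium-activated chloride channel, from 732 ± 41.4 to 402 ± 74.5. Both upward calls were lost when Ercc1Δ/- 004 was left out.

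Among 14 regulators of splicing in smooth muscle, 3 were called lower and 1 higher (28.6%, against 12.0% of all genes). Rbpms, a master splicing regulator of the contractile state, measured 1319, 1270, 1490 and 1408 against 2283, 2079, 2125 and 2059 (-0.62 ± 0.10, adjusted p = 0.000158), and its paralog Rbpms2 fell from 394 ± 23.0 to 270 ± 25.1. Rbfox2 had a log2 fold change of -0.38 ± 0.10 and lost its call without WT 018 (2 genes of the list were then called). Ptbp3, of the PTB family of repressors, was 0.51 ± 0.16 higher with an adjusted p of 0.0377, and its call was lost without 6 of the 8 samples in turn.

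Guidance cues, which steer axons and also vessels, had calls in both directions. Of the slits, netrins and their receptors 3 of 12 were called lower, led by Slit3, which smooth muscle releases to the endothelium (711, 768, 932 and 1018 against 1478, 1584, 1717 and 1568; -0.89 ± 0.18). Ntn1 (netrin 1) was 1363 ± 158 against 1875 ± 131 and Unc5c, a netrin receptor, 80.0 ± 4.53 against 155 ± 53.7. Of these 3 calls only that of Slit3 was kept without Ercc1Δ/- 004 or without WT 018. Ephrins and their receptors had 3 of 14 members called lower, and only Efnb2 (197 ± 43.1 against 275 ± 27.8), an arterial marker, kept its call in each omission, with 1 member called without Ercc1Δ/- 004 or WT 018. After thinning 0 of the 14 were called, Efnb2 included (log2 fold change -0.46), and in males only Efnb2 was. Semaphorins had 2 of 18 called higher and 2 lower (1 and 1 without Ercc1Δ/- 004, 1 higher without WT 018). That was 22.2% called, against 12.0% of all genes. Sema6b rose from 17.6 ± 3.21 to 45.3 ± 8.20 and Sema3c fell from 572 ± 10.3 to 427 ± 45.2, and of the receptors Nrp1, which semaphorins and VEGF share, rose from 189 ± 20.4 to 265 ± 15.2.

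BMP signalling, which controls growth and calcification of the wall, had 3 of 12 receptors and SMADs called, 1 of 10 antagonists and no ligand or Id gene. The shares were 25.0% of receptors and SMADs and 10.0% of antagonists, against 12.0% of all genes. Of the receptors, Eng (endoglin) was called higher, a call lost without Ercc1Δ/- 013 or WT 025, and Bmpr1a lower, a call lost without each of the 8 samples in turn. None of the 7 ligands was called by edgeR (3 lower at an unadjusted p under 0.05, 1 called lower by DESeq2), and none of the target genes Id1 to Id4 (1 lower at an unadjusted p under 0.05, 0 by DESeq2), whose log2 fold changes were 0.26 ± 0.19, -0.13 ± 0.17, -0.04 ± 0.12 and -0.51 ± 0.22. Smad1, which carries the signal to the nucleus, fell from 130 ± 10.9 to 85.5 ± 23.2, and the antagonist Fstl1 from 5258 ± 312 to 3584 ± 452. Smad1 lost its call after thinning (log2 fold change -0.46). In the retinoic acid pathway Cyp26b1, which breaks the hormone down, fell from 91.1 ± 17.5 to 33.1 ± 17.5 (-1.48 ± 0.24, adjusted p = 0.000237). Gfra1, a receptor for glial growth factor GDNF, rose from 5.56 ± 1.52 to 27.4 ± 7.76. Fat4, a giant cadherin of cell polarity, fell from 353 ± 30.1 to 172 ± 28.5, and Sox4, a developmental transcription factor, rose from 55.1 ± 8.56 to 95.7 ± 18.5 while Zeb1 and Foxf1 fell by 0.50 and 0.67 on the log2 scale. The calls of Sox4 and Foxf1 were lost after thinning.

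Macrophage genes were higher in Ercc1Δ/-. Of 6 macrophage markers 5 were called higher, with a summed level of 1099 to 1876 in Ercc1Δ/- against 561 to 810 in WT (3 called without Ercc1Δ/- 004, Ercc1Δ/- 005 or WT 018), while T, B, natural killer and neutrophil markers summed to at most 22 normalized counts in each of the 8 libraries. After thinning 2 of the 6 macrophage markers were called higher, and 0 in males only. Fc receptors and their ITAM adaptors, through which phagocytes sense antibody-coated particles, had 7 of 8 tested members called higher, where 5.88% of all genes were, and a median log2 fold change of 1.55. Without WT 018, 5 of them were called, with 3 after thinning and 2 in males only. Fcgr2b, the inhibitory Fc receptor, measured 110, 106, 78.1 and 109 against 29.1, 27.6, 27.3 and 31.1 (1.78 ± 0.26, adjusted p = 0.000104). Pirb, an inhibitory receptor for MHC, was 50.7 ± 17.8 against 14.6 ± 3.86 and Fcer1g, the common signalling chain, 45.1 ± 12.4 against 14.7 ± 3.31. Tyrobp (DAP12) was 55.0, 57.8, 14.0 and 62.2 against 6.45 to 21.4, so that mutant 013 fell within the WT range. Pirb and Tyrobp lost their calls after thinning and in males only, while Fcgr2b and Fcer1g kept theirs.

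Sensing and scavenging genes were also higher where they were called. All 17 tested Toll-like receptor and inflammasome genes had a positive log2 fold change, of which 4 were called (2 without Ercc1Δ/- 004 or WT 018). Casp4, the caspase that senses bacterial lipopolysaccharide in the cell, stood at 78.5, 70.4, 58.6 and 84.6 against 8.73, 21.6, 21.4 and 14.8 (2.05 ± 0.30, adjusted p = 8.45e-05), and Unc93b1, which brings Toll-like receptors to the endosome, at 134 ± 20.5 against 70.3 ± 14.5. Of the 17, only Casp4 was called after thinning, and likewise in males only. Of 15 scavenger receptors and lectins 8 were called higher (3 without WT 018), among them Lgals9 (galectin 9; 220 ± 46.5 against 98.0 ± 30.3) and Siglec1, the sialic acid receptor of tissue macrophages (68.5, 143, 64.2 and 69.7 against 16.5, 51.1, 23.1 and 16.0). After thinning 4 of the 15 were called higher, and 4 in males only. In the leukotriene pathway the enzyme Alox5, its activator Alox5ap and the synthase Ltc4s were each higher, with log2 fold changes of 1.85 ± 0.36, 1.62 ± 0.29 and 1.77 ± 0.39. None of these calls was kept after thinning, with log2 fold changes of 1.34, 0.82 and 1.98, or in males only. The other called gene of the 22, the thromboxane receptor Tbxa2r, was lower at 68.7 ± 6.73 against 111 ± 12.0. It lost its call without Ercc1Δ/- 004 or WT 018.

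Genes for the export of cholesterol, many of them targets of the oxysterol sensor LXR, had 12 of 21 tested members called higher and 0 lower, and a median of 0.69. Abcg1, which loads cholesterol onto HDL, measured 83.9, 83.0, 61.4 and 67.2 against 22.3, 18.0, 19.7 and 15.6 (2.15 ± 0.27, adjusted p = 1.96e-05), and its partner Abca1 182 ± 43.2 against 104 ± 13.0. Lipa, the lysosomal acid lipase, stood at 443 ± 27.6 against 279 ± 11.1 and Gpnmb, of lysosomes and foam cells, at 217 ± 25.4 against 104 ± 11.8. The list had 6 members called without WT 018, 7 without Ercc1Δ/- 004 and 9 to 14 in the other omissions. After thinning 8 were called higher, and 4 in males only. Macrophage markers moved with all these lists, and a larger number of macrophages cannot be told apart from more of each RNA per cell. The paper reports macrophage-like smooth muscle cells in this wall, from marker RNA, immunoblots and stained cells of the media. Counts from the whole wall cannot set such cells apart from macrophages. Fat markers moved with the cholesterol list as well. Its summed level was 35401, 26528, 12794 and 20162 in the mutants, the order of their fat sums (7218, 4383, 943 and 3471), against 10127 to 19482 in WT, with mutant 013 below 3 of the 4 WT mice. The part of fat in this list was not tested.

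The integrated stress response slows protein synthesis and, through the factor ATF4, switches on genes for amino acid supply. Of 24 tested targets 8 were called higher and 0 lower, with a median of 0.33, and 5 were called higher without WT 018. After thinning 4 were called higher and 1 lower. Trib3, a brake on the response, measured 32.5, 27.3, 30.7 and 37.3 against 19.4, 10.1, 10.3 and 11.0 (1.44 ± 0.27, adjusted p = 0.000924). Psat1, of serine synthesis, was 52.5 ± 8.27 against 24.1 ± 3.98, Sesn2 (sestrin 2) 79.5 ± 9.43 against 48.5 ± 3.64 (call lost after thinning) and Slc3a2, for a chain of amino acid transporters, 419 ± 45.4 against 285 ± 36.5. In contrast, 0 of 20 cytosolic aminoacyl tRNA synthetases was called by edgeR, with a median of 0.03 (4 at an unadjusted p under 0.05, 0 called by DESeq2).

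The ATF4 element, searched on both strands as TGATGNAA in the same windows, was present in 3.97% of all windows and in 2.75% of the tested genes with a window. It was found in 6 of the 23 tested targets with a window and in 3 of the 8 that were called, Trib3, Asns and Nupr1. The list was drawn up as targets of ATF4, so a share above that of all genes is no result of these data. In Trib3 the element lay 15 bases after the start and is not printed. The other 2 are given in the same way, with the element in capitals 23 bases before the start in Asns and 110 bases before it in Nupr1. Only the Asns stretch reaches the start, and in Nupr1 the element reads on the opposite strand.
Asns (chr6:7693210-7693272, minus strand): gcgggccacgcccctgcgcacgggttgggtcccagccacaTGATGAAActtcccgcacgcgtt
Nupr1 (chr7:126625533-126625620, minus strand): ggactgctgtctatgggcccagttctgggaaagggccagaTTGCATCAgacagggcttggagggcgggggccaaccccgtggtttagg

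Asns, asparagine synthetase, measured 81.2, 46.2, 27.9 and 39.8 against 33.0, 14.3, 19.7 and 14.1, so that 1 WT value lay within the mutant range, and its call was lost without Ercc1Δ/- 004, WT 018 or WT 025, with log2 fold changes of 1.08 to 1.71 over the omissions. Among the other stress genes the metallothioneins, which bind zinc and copper, stood out. Mt2 was at 444, 526, 555 and 478 against 150, 113, 162 and 152, and Mt1 at 726, 764, 832 and 764 against 331, 228, 431 and 370, with log2 fold changes of 1.82 ± 0.25 and 1.25 ± 0.19, while none of the 12 other tested metallothionein or zinc transporter genes was called by edgeR or DESeq2 (2 at an unadjusted p under 0.05). Vmp1 and Gabarapl1 were the 2 genes called among 35 of autophagy (250 ± 11.3 against 152 ± 8.27 and 1408 ± 72.0 against 1015 ± 73.2). That share, 5.71%, was below the 12.0% of all genes. Eda2r, a TNF family receptor and p53 target, rose from 12.7 ± 3.48 to 42.5 ± 10.9.

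All 17 tested genes of the mitochondrial genome had a positive log2 fold change, from 0.43 to 1.42 with a median of 0.96, and 5 were called. The list of nuclear genes of fatty acid oxidation, which also held the carrier gene Ucp2, had a positive sign in 20 of 22. Apart from Ucp2 no member was called, and the median of the list, 0.37, dropped to -0.15 in a fit of the males alone. Summed fat markers stood at 7218, 4383, 943 and 3471 in the mutants against 1192 to 1710 in WT, and the part of fat in these genes was not tested. In glycolysis the muscle isoform Pfkm, for phosphofructokinase, fell from 556 ± 28.0 to 384 ± 31.8, and Pygb, which breaks glycogen down, from 826 ± 47.0 to 563 ± 62.8. Gapdh and Ldha were called higher, but each lost its call without 6 of the 8 samples in turn; without Ercc1Δ/- 013, the mutant with the lowest fat sum, 8 genes of glycolysis were called higher, and by DESeq2 with all samples 7.

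Secreted proteins of inflammation and clotting divided by gene. Serpina3n, an acute phase protease inhibitor, measured 578, 648, 756 and 488 against 188, 87.5, 164 and 127 (2.22 ± 0.24, adjusted p = 1.58e-05), and Serping1, the C1 inhibitor, 3851 ± 354 against 2363 ± 240. With Serpinh1 and Wfdc1 described above, 4 of 16 inhibitors were called higher and 3 lower (43.8%, against 12.0% of all genes). F2r, the thrombin receptor PAR1, rose from 537 ± 60.8 to 864 ± 81.0 while tissue factor (F3) fell. Anxa8, an annexin that binds membranes with calcium, was at 91.1, 93.5, 89.3 and 157 against 11.6, 16.1, 47.9 and 21.6 (2.22 ± 0.32), with mutant 026 and WT 020 each above the rest of their group.

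Other lists had a smaller share called by edgeR than the 12.0% of all genes. Among 20 tested genes of double-strand break repair none was called by edgeR or DESeq2 (2 at an unadjusted p under 0.05), and among 15 of the Fanconi pathway, which removes crosslinks with the help of ERCC1, only the nuclease scaffold Slx4 was, at 75.4 ± 5.58 against 113 ± 7.95, a call lost without Ercc1Δ/- 005. By edgeR none of 13 connexin and tight junction genes was called (2 at an unadjusted p under 0.05, 1 called by DESeq2) and none of 10 of hyaluronan metabolism (2 and 0). Of 15 genes for heparan sulfate, 10 Hox genes, 27 nuclear receptors, 24 imprinted genes and 31 proteasome subunits, 1, 1, 2, 2 and 2 were called by edgeR, and each of these 8 calls was lost when at least 3 of the samples were left out in turn. DESeq2 called 2, 1, 6, 2 and 3 of them. Of the nuclear receptors 11 had an unadjusted p under 0.05 by edgeR, 3 higher and 8 lower, and of the proteasome genes 29 of 31 had a positive log2 fold change, 8 of them with an unadjusted p under 0.05. A p that misses the threshold does not show that these genes were alike in the 2 groups.

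Genes near Ercc1 share its stretch of chromosome 7 and were described apart for that reason. Within 1 Mb of Ercc1, 38 genes were tested and 11 called (28.9% against 12.0% of all genes), 7 lower and 4 higher; within 5 Mb it was 14 of 78 (17.9%), and 13.3% over the 926 tested genes of chromosome 7 other than Ercc1. The lower ones were Bcam, Ercc2, Vasp, Eml2, Dmpk, Polr1g and Mark4, the last not called without 3 of the samples in turn. Bcam, a laminin receptor of smooth muscle 400 kb away, stood at 2135 ± 156 against 4799 ± 101 without overlap (log2 fold change -1.15 ± 0.10, adjusted p = 7.25e-08), and it was also called lower at 6 weeks (-0.83) and on DR (-1.31). Ercc2, the XPD helicase of the same repair pathway 25.5 kb from Ercc1, fell from 169 ± 9.37 to 92.9 ± 29.9 and was likewise called in both other sets. Vasp, an actin elongation factor 69.1 kb to the other side, fell from 789 ± 69.6 to 461 ± 59.3, and Dmpk, a kinase of muscle, from 4549 ± 377 to 2933 ± 627.

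Polr1g, a subunit of RNA polymerase I, overlaps Ercc1, and without knowledge of the strand setting in counting its reads cannot be told apart from those of Ercc1; its call was lost without 7 of the 8 samples in turn. On the other side Apoe, a lipid carrier of macrophages and an LXR target, rose from 2044 ± 152 to 3269 ± 198. Its neighbours Apoc1, Tomm40 and Bcl3 were called higher, with the calls lost without 2, 7 and 3 of the samples. Apoe, Apoc1, Tomm40, Bcl3, Polr1g and Mark4 were called neither at 6 weeks nor on DR, and Vasp, Eml2 and Dmpk on DR only. Apoe had log2 fold changes of 0.19 at 6 weeks and 0.15 on DR. An effect of the alleles on their neighbours and a difference of the chromosome around them cannot be told apart here. The part of the changed macrophage and smooth muscle markers in these genes was not tested.

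**Figure D3:**
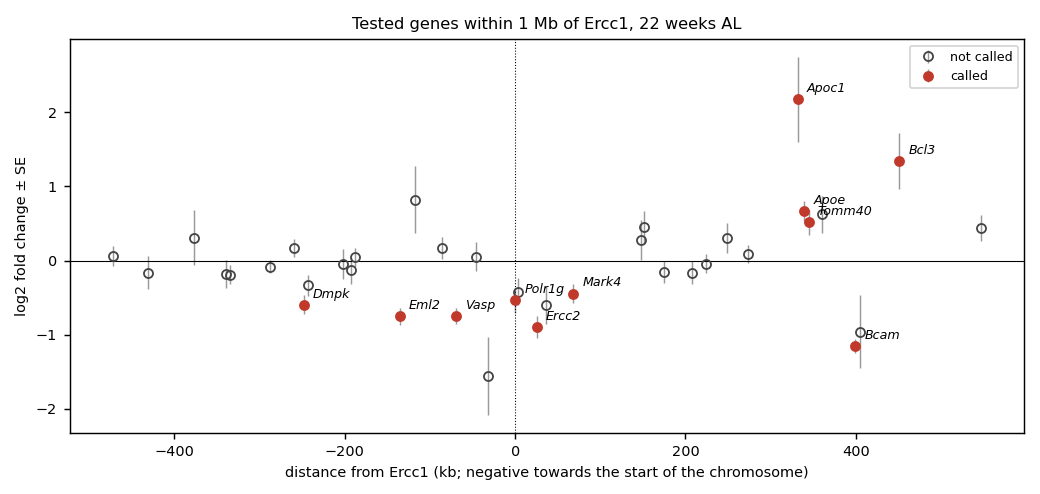
Log2 fold change ± SE of the 38 tested genes within 1 Mb of Ercc1 against their distance in kb (Ercc1 at 0, left out); filled points were called. The 7 genes called lower lie between -248 kb and 400 kb, and the 4 called higher lie together from 332 kb to 451 kb.

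Gene length and class moved with direction. Protein-coding genes were ordered by length from start to end and cut into 10 equal sets. The longest set (131 kb and more) held 183 genes called lower and 48 higher, the median of its log2 fold changes being -0.14, and the shortest (up to 6.09 kb) held 39 lower and 87 higher, with a median of 0.11. Reads had been counted over whole gene bodies, introns included. Processed pseudogenes, which are copies of the mRNA of other genes, had a positive sign in 180 of 206 tested, with 23 called higher and 1 lower. Reads that fit several places were also more frequent in Ercc1Δ/- (5.19% to 5.74% against 3.66% to 4.46% of reads), so that levels of such copies are uncertain. In the shallow WT libraries 003 (400410 reads) and 011 (955589 reads, 6 weeks) this share was 9.63% and 6.33%. The mutant libraries were shallower than those of WT, and the part of depth in this share was not tested.

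**Figure D4:**
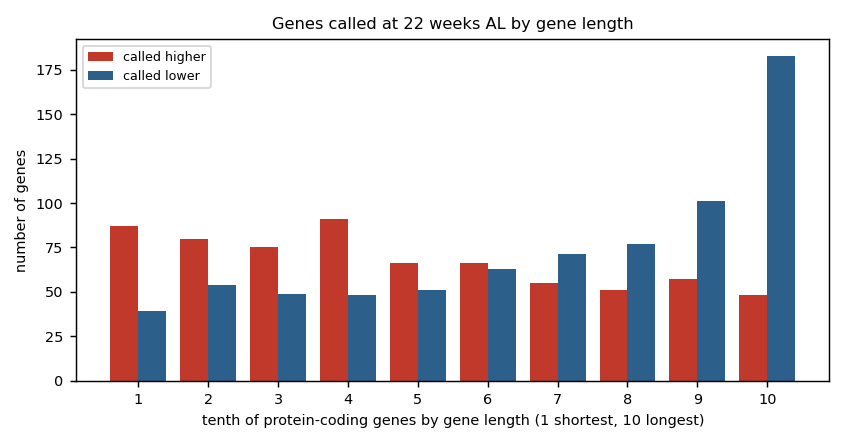
Number of genes called higher (red) and lower (blue) in each of 10 equal sets of the tested protein-coding genes, ordered by gene length. Calls lower in Ercc1Δ/- go from 39 in the shortest set to 183 in the longest, and calls higher from 87 to 48.

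The same contrast was then read in other mice. The DR libraries had not entered the fit behind the calls above but had counted toward the filter that set which genes were tested, while the 6-week libraries had entered that fit for the estimate of spread and sex. In the 5 Ercc1Δ/- and 5 WT mice on DR, fitted alone, 1415 genes (11.5%) were called, 5.09% of all genes higher and 6.36% lower. Depth did not overlap between the genotypes on DR either, with 921167 to 2572523 reads against 2660422 to 6124471. Of the 726 genes higher on AL, 693 were also above WT on DR and 273 were called there, and of the 761 lower, 713 were below WT and 400 were called. The 673 shared calls made up 45.3% of the AL calls and 47.6% of the DR calls, and the median log2 fold change of the AL calls was 0.59 (higher) and -0.41 (lower) on DR against 0.96 and -0.60 on AL. A smaller median in new samples also follows from choosing genes by their AL values. Psrc1, Gda, Ctss, Adam8 and Itga8 were called on DR with log2 fold changes of 2.15, 1.66, 1.93, 2.06 and -0.79. By the test of the difference itself 12 genes differed between the diets, among them Spp1 (5.44 on AL and 1.63 on DR) and Celf4, whose log2 fold change was 1.65 larger on AL.

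At 6 weeks 121 genes (0.98%; 0.364% higher and 0.615% lower) were called in 5 and 5 mice, and 85 of them were called in the same direction at 22 weeks, 70.2% of the 6-week calls and 5.72% of the 22-week calls. Of the genes higher at 22 weeks 614 of 726 were above WT at 6 weeks already, and of those lower 633 of 761 were below. Called at 6 weeks, at 22 weeks on AL and on DR in 1 direction were 75 genes, 29 higher and 46 lower. Among the leading genes they included Psrc1 (1.56 at 6 weeks), Sncg (0.61), Ifitm3 (0.71), Ctss (1.16) and Itga8 (-0.72). They also included Actn1 of the focal adhesion list (-0.59) and Dtna and Dmd of the dystrophin complex (-0.73 and -0.67). Of the named immune genes they included Lgals9, Siglec1 and Pirb. Of the 38 tested focal adhesion genes, 8 were called lower at 6 weeks and 23 on DR. The genotype effect differed between the ages in 104 genes, of which 101 were called at 22 weeks. Spp1, Prg4, Celf4 and Fetub had log2 fold changes of -1.01, -0.25, -0.19 and -0.05 at 6 weeks and 5.44, 3.12, 2.79 and 2.71 at 22 weeks. Tub, Casq1, Cacna1g, Serpinh1, Mt1 and Mt2 were likewise within 0.10 of 0 at 6 weeks.

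**Figure D5:**
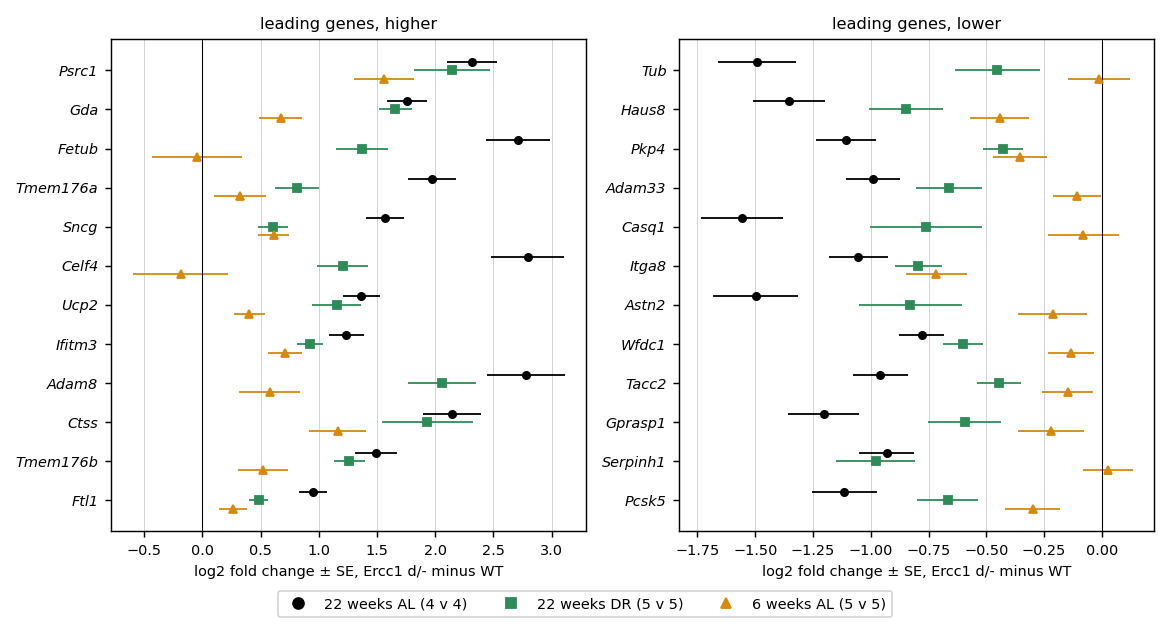
Log2 fold change ± SE (Ercc1Δ/- over WT) of the 24 leading genes at 22 weeks on AL (black, the comparison that chose them), at 22 weeks on DR (green) and at 6 weeks on AL (orange). Signs on DR match those on AL for all 24 genes, and at 6 weeks Fetub, Celf4 and Serpinh1 lie on the other side of 0 by less than 0.20.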

How the data were processed

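RNA from the aortic arch was sequenced with unique molecular identifiers, and per the labels and the study's methods STAR 2.7.10a aligned the reads to GRCm39, UMI-tools 1.1.2 removed duplicates and HTSeq 2.0.2 counted reads over gene bodies. The authors deposited whole-number counts per gene and library, not normalized; the strand setting is not given in the sources used here. Lines for unassigned reads (12.6% to 20.5% of reads) were kept out of library sizes and tests.

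A gene was tested if its count exceeded 10 in at least 11 of the 28 libraries that remained without sample 003 (12353 genes). The 18 AL libraries were fitted in edgeR 4.0.16 (R 4.3.3; TMM, robust quasi-likelihood F test, group and sex), and 6-week and DR libraries in fits of their own (10 each). Adjusted p-values are Benjamini-Hochberg over all genes tested. Alternatives were DESeq2 1.42.0, RLE, no filter, sample 003 added, no sex term, other sample sets, a test against 1.2-fold, another dispersion method (added after seeing the data), thinning, males only and leaving out each sample.

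Positions and classes came from GENCODE vM39, promoters from RefSeq (GRCm38.p6; 9376 of 12353 tested genes matched by symbol). Members and lists were chosen with earlier results of these data known. Named were, in each direction, the 12 called genes of smallest p whose groups did not overlap and that were not already described, the 4 largest changes among called genes with at least 50 normalized counts in the higher group, up to 4 called members of each list by p, sex-linked genes as a check, genes within 1 Mb of Ercc1, and some members to complete a family or for their promoters, the last chosen after values were seen. Each library came from 1 mouse, and p-values measure the spread between these mice. Some members of the lists are counted but not reported here by name.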

Additional observations from a re-analysis of the deposited data

Results flagged for a closer look

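The test for a value apart from the other 3 of its group was run on 402 groups of 4, of which chance alone marks about 1 in 20, and 20 were marked. In Ercc1Δ/- mice, sample 013 was apart and high in Fetub (126 normalized counts), Sncg (1038), Eng (790), Flt1 (416), Pdlim7 (1434), the summed skeletal muscle markers (784) and the summed erythrocyte markers (3276), and low in Fcgr2b (78.1) and Tyrobp (14.0). Sample 026 was high in Anxa8 (157) and Id3 (888), sample 005 in Siglec1 (143), and sample 004 was low in Tbxa2r (58.6) and Osr1 (639). In WT, sample 020 was high in Rarres1 (21.4) and in the summed macrophage markers (810), sample 012 in Trib3 (19.4) and 5430431A17Rik (126), and sample 018 was low in Sema6d (25.3) and in the summed lymphatic endothelium markers (98.6). The calls of Eng, Flt1, Osr1, Tbxa2r, Rarres1 and Sema6d were lost without 2, 3, 5, 2, 1 and 2 of the 8 samples in turn, and Id3 was not called.

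The genotype effect at 22 weeks differed from that at 6 weeks by the interaction term (adjusted p at most 0.05). The differences, 22 weeks minus 6 weeks on the log2 scale, were positive for Spp1 (6.46), Prg4 (3.35), Celf4 (3.02), Fetub (2.77), Gfra1 (2.55), Adam8 (2.19), Abcg1 (1.99), Mt2 (1.74), Serpina3n (1.72), Tmem176a (1.64), Mt1 (1.32), Gpnmb (1.16), Gda (1.09), Sncg (0.97), Ucp2 (0.95), Vmp1 (0.78), Ftl1 (0.69) and Anxa1 (0.59). They were negative for Nnat (-3.44), 5430431A17Rik (-2.25), Stum (-2.22), Cacna1g (-1.79), Tub (-1.48), Casq1 (-1.47), Astn2 (-1.29), Gprasp1 (-0.99), Serpinh1 (-0.95), Haus8 (-0.91), Kcnab1 (-0.89), Adam33 (-0.88), Fat4 (-0.83), Tacc2 (-0.81), Pcsk5 (-0.81), Fstl1 (-0.78), Pkp4 (-0.76), Fblim1 (-0.72) and Wfdc1 (-0.64). Between diets, AL minus DR, the differences were 3.87 for Spp1 and 1.65 for Celf4. These genes were chosen by their 22-week values on AL, which favours larger effects there. The 22-week call was lost without 3 of the samples in turn for Nnat and without Ercc1Δ/- 026 for Anxa1.

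Outside the gene counts, reads that aligned to several places made up 5.45% in Ercc1Δ/- against 4.09% in WT on average, and reads over more than 1 gene 1.79% against 1.61%, each without overlap between the groups. Depth did not overlap either, and its part in these shares was not tested.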

How the results depend on the processing

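No paired analysis was possible because each mouse gave 1 sample and the sample numbers differ between groups. The count of 1487 genes called stayed within 1.5 times under DESeq2 (1685), RLE (1478), no filter (1665), sample 003 added (1149), no sex term (1616), the 8 samples alone (1638), all 28 samples (1546) and the other dispersion method (1419). It was 697 in the test against 1.2-fold itself, 814 after thinning and 361 in males only, where fewer samples or reads entered or the test was stricter, and 933 to 1437 when 1 sample was left out (933 without WT 018, the only WT female). Genes called in both the 6-week and the 22-week comparison numbered 85 with edgeR and 165 with DESeq2 at 6 weeks, and the cause was not tested. Of 184 called genes named by the rule none changed sign under any alternative. The alternatives reused samples by which these genes had been chosen, which favours the same sign. Of these genes, 184 stayed called with DESeq2, 159 with sample 003, 123 after thinning, 71 in males only and 124 to 168 when a sample was left out. Thinning was to 921167 reads per library, and depth limits what can be said of genes with few counts.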
